A study of Mus musculus with 14 samples.

Results

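The genes described here are the chemokines and chemokine receptors of mouse liver. They are all genes with a probe on the array whose name or current symbol begins with Ccl, Cxcl or Xcl and a number, Ccr or Cxcr and a number, or Cx3c. The rule found 53 genes among the 36093 named on the array, and each was represented by its brightest probe. The 53 were 19 CC chemokines, 14 CXC chemokines, 1 CX3C chemokine, 1 XC chemokine and 18 receptors. Pf4 and Ppbp entered because the array design calls them Cxcl4 and Cxcl7.

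Liver RNA came from 14 male C57BL/6 mice, 1 year old, each on an array of its own. Of these, 5 ate the AIN-93G standard diet. Another 5 ate AIN-93G modified to a high-calorie diet in which fat supplied 60% of the calories. The last 4 ate that high-calorie diet with 0.04% resveratrol, a polyphenol found in grapes, and all diets were given ad lib. RNA of the animal was labelled with Cy3 and compared on every array with Cy5-labelled RNA pooled from 5 livers of standard-diet mice. Each value below is therefore log2(animal/pool), and each difference is a difference of such values between diets. No array had the dyes swapped, so a probe's distance from 0 mixes the animal's difference from the pool with a dye effect, and these cannot be told apart. Only differences between diets are tested.

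Chemokines are small secreted proteins that direct the movement of leukocytes by binding G protein-coupled receptors on their surface. They are classed by the spacing of conserved cysteines near the amino terminus. In liver they are made by Kupffer cells, endothelium, stellate cells and hepatocytes, and they draw monocytes, T cells and neutrophils from the blood. Interferon gamma induces Cxcl9 and Cxcl10, in part through IRF1, while NF-kappaB drives Ccl2, Cxcl1 and Cxcl2. Ccr2 marks monocytes recruited to the liver, and Cx3cr1 is carried by monocytes and some macrophages.

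A gene was tested if at least 4 arrays showed its probe well above background in Cy3, the animal's channel. Of the 53 genes, 49 passed: 18 CC chemokines, 13 CXC chemokines, Cx3cl1 and 17 receptors. The probe was well above background on all 14 arrays for 32 genes and on 4 to 13 arrays for 17. Ccl22, a ligand of Ccr4, Cxcl5, a neutrophil attractant, and Ccr1, a receptor of Ccl3 and Ccl5, were not well above background on any array. Xcl1, the lymphotactin of T and NK cells, was so on 1 high-calorie array. Ccl11, the eosinophil attractant eotaxin, was well above background on none of the 5 standard-diet arrays, on 3 high-calorie arrays and on 3 resveratrol arrays. Its log2(animal/pool) differed by 0.0061 ± 0.044 (SE) between high-calorie and standard diet (adjusted p = 0.945) and by 0.037 ± 0.047 (SE) between resveratrol and standard diet (adjusted p = 0.826), with overlapping groups. In the Cy3 channel alone, scaled between arrays and without the pool, its mean was 1.03-fold higher in high-calorie and 1.10-fold higher in resveratrol than in standard-diet mice. Counting a dim probe at no less than the lowest signal above background on its array left the standard-diet mean unchanged. These folds are therefore ratios of measured means, with no error or test. Ccl17, a ligand of Ccr4, was so on 2 standard-diet, 2 high-calorie and 0 resveratrol arrays. Cxcl10 and Ccr2 were each well above background on 1 standard-diet array, on 5 high-calorie arrays and on 4 resveratrol arrays. For 14 of the 49 genes more high-calorie than standard-diet arrays detected the probe, and for 0 fewer. Over all probes, 77.8% to 88.2% were well above background on the standard-diet arrays and 83.5% to 91.8% on the high-calorie arrays, so detection was lower on standard-diet arrays beyond the chemokines too.

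**Figure D1:**
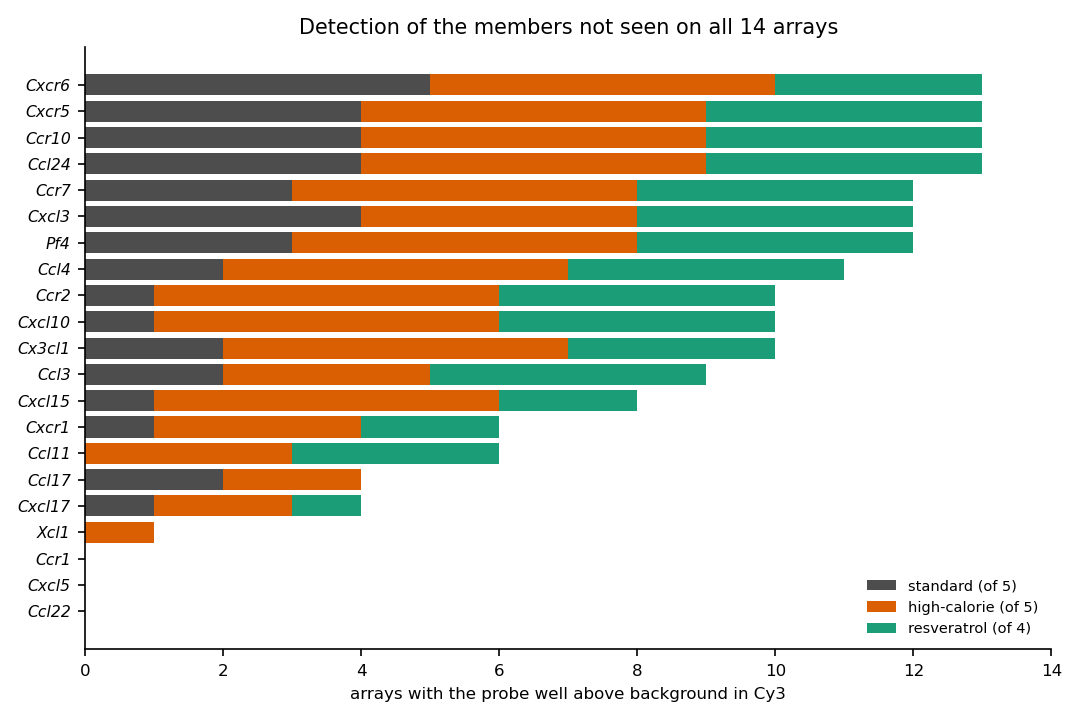
Number of arrays (x axis, out of 14) on which the probe of each gene (y axis) was well above background in Cy3, stacked by diet, for the 21 genes not detected on all arrays. Cxcl10 and Ccr2 each have 1 standard-diet array and all 5 high-calorie arrays, and Ccr1, Cxcl5 and Ccl22 have none.

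All 5 hepatocyte markers measured (Alb, Ttr, Apoa1, Trf and Fgb) were well above background on all 14 arrays. The arrays differed in ways that touch these results. The median net Cy3 signal was 66.0 ± 13.6 intensity units (SD, n = 5) on standard-diet, 84.4 ± 20.8 (SD, n = 5) on high-calorie and 79.4 ± 15.9 (SD, n = 4) on resveratrol arrays. Images were processed by the scanner software on 2 days, with 3 standard-diet, 2 high-calorie and 4 resveratrol arrays on the first and 2, 3 and 0 on the second. Slide numbers fell into 2 series, the first with 2 high-calorie and 3 resveratrol arrays and the second with 5 standard-diet, 3 high-calorie and 1 resveratrol array. Resveratrol mice 3 and 4 stood apart. A member led all 13 other arrays by more than 0.5 log2 units on resveratrol array 4 for 5 of 49 genes (10.2%, against 0.223% of all genes tested) and on resveratrol array 3 for 2 of 49 (4.08%, against 0.441%). Differences with resveratrol that rest on these mice are given with and without them.

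In the liver of high-calorie mice the interferon-inducible chemokines Cxcl9 and Cxcl10 and the receptor Ccr2 were higher than in standard-diet mice, and no chemokine or receptor was called lower. In limma's fit over all genes, 4 of 49 members (8.16%) passed an adjusted p under 0.05, all higher. Among all 32673 genes tested, 9.44% passed, with 5.37% higher and 4.07% lower, so the members' share was near that of the array as a whole. The median difference of the members was -0.0124, beside -0.00213 over all genes. The rises of these 3 genes ranged from a fold of 1.18 to a fold of 1.58. The groups did not overlap for 5 of 49 members (10.2%, against 10.3% of all genes), with 4 higher (Cxcl9, Cxcl10, Ccl2 and Ccr2, against 5.15% of all genes) and 1 lower (Ccr9, against 5.18%). The direction of the calls depended on the scaling: with median centring in place of loess 4 members were called higher and 2 lower, and without background correction 2 and 2.

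Cxcl9, a ligand of Cxcr3 that attracts activated T cells, read -0.63, -0.55, -0.47, -0.46 and -0.45 on the standard-diet arrays, -0.029, 0.15, -0.13, -0.10 and 0.12 on the high-calorie arrays, and -0.40, -0.15, -0.62 and 0.21 on the resveratrol arrays. Every high-calorie array lay above every standard-diet array, while the resveratrol arrays spanned both groups. The mean was -0.51 ± 0.077 (SD, n = 5) on the standard and 0.0029 ± 0.13 (SD, n = 5) on the high-calorie diet, a difference of 0.51 ± 0.12 (SE) with an adjusted p of 0.0172. Cxcl10, which binds the same receptor, read -0.78, -0.70, -0.49, -0.46 and -0.41 on the standard-diet arrays, -0.065, 0.37, -0.22, -0.028 and 0.39 on the high-calorie arrays, and -0.63, 0.28, -0.43 and 0.14 on the resveratrol arrays. Again the standard-diet and high-calorie groups did not overlap, and on 4 of the 5 standard-diet arrays the probe was not well above background. The difference was 0.66 ± 0.17 (SE), a fold of 1.58, with an adjusted p of 0.0277. The size of both rises depended on the processing: without background correction it was 0.14 for Cxcl9 and 0.15 for Cxcl10 (adjusted p = 0.0543, not called), and in the Cy3 channel alone 1.10 (adjusted p = 0.0738, not called) and 2.11. Cxcl10 lost its call in 10 of 29 alternatives. With resveratrol, mice 1 and 3 lay near the standard-diet values and mice 2 and 4 near the high-calorie values in both genes. Resveratrol minus high-calorie was -0.25 ± 0.13 (SE) for Cxcl9 (adjusted p = 0.27) and -0.25 ± 0.18 (SE) for Cxcl10 (adjusted p = 0.448). Without resveratrol mouse 4, the highest of its group, Cxcl9 was called lower with resveratrol, at -0.40 and an adjusted p of 0.0306.

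Cxcl9 and Cxcl10 lie near each other on chromosome 5. The 250 bases before their start sites were read from the RefSeq promoter table of GRCm38.p6 and are shown because both genes were called together. The third, of the neutrophil attractant Cxcl1 on the same chromosome, is shown for contrast, since that gene was high in a single mouse, as given further on. Each is written 5′ to 3′ on the gene's strand and ends at the base before the start. Capitals mark matches, on either strand, to the interferon-stimulated response element letters GAAANNGAAA or to the kappaB letters GGGNNNTTCC. The windows are chr5:92348890-92349139 on the minus strand for Cxcl10, chr5:92328080-92328329 on the minus strand for Cxcl9 and chr5:90890995-90891244 on the plus strand for Cxcl1.
Cxcl10: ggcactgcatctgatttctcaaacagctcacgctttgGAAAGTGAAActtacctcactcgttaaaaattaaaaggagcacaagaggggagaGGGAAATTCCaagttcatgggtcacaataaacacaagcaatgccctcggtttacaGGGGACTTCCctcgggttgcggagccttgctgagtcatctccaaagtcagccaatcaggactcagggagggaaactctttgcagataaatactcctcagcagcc
Cxcl9: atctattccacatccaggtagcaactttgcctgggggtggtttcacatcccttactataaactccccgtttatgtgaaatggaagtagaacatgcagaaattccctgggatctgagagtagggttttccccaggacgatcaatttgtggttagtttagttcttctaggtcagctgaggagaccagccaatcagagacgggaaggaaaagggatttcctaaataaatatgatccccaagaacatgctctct
Cxcl1: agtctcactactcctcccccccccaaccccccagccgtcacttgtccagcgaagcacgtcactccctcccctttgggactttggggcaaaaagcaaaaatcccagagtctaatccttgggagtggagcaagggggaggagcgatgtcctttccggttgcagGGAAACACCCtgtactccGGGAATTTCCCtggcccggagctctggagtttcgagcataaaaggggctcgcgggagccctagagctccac
The Cxcl10 window held the response element letters from -213 to -204 and kappaB letters from -159 to -150 and from -104 to -95, counted from the start. The Cxcl1 window held kappaB letters from -89 to -80 and, in overlapping matches on both strands, from -71 to -61. The Cxcl9 window held neither set of letters. Of 32851 promoters in the table, 2.98% held the response element letters and 4.65% the kappaB letters. Among the 43 promoters of the 39 members with an entry, 3 and 8 held them. Ccr2, Cx3cr1 and Cxcl12 held neither. A match is a run of letters, and occupancy was not measured here.

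Cxcr3, the receptor of Cxcl9 and Cxcl10 on T and NK cells, read -0.45, -0.46, -0.38, -0.36 and -0.43 on the standard-diet arrays, -0.56, -0.42, -0.32, -0.28 and -0.24 on the high-calorie arrays, and -0.48, -0.35, -0.36 and -0.33 on the resveratrol arrays. The 3 diets overlapped throughout, and the difference of high-calorie from standard diet was 0.053 ± 0.056 (SE) (adjusted p = 0.574). Of 7 T cell markers tested, none was called higher and Cd3d was called lower, at -0.25 ± 0.070 (SE) (adjusted p = 0.0368). None of 7 NK cell markers was called in either direction.

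The genes upstream of these ligands gave a mixed count. Of 29 inducers of chemokines tested (cytokines, their receptors and the transcription factors below them), 4 were higher and 3 lower in high-calorie mice, 24.1% against 9.44% of all genes. Irf1, a transcription factor induced by interferon gamma, was higher by 0.58 ± 0.10 (SE) (adjusted p = 0.00371). It read -0.27, -0.55, -0.58, -0.62 and -0.42 on the standard-diet arrays, -0.080, -0.015, 0.17, 0.15 and 0.23 on the high-calorie arrays, and -0.28, 0.27, -0.22 and -0.022 on the resveratrol arrays. All high-calorie values lay above all standard-diet values. The interferon gamma receptor chain Ifngr2 was higher by 0.29 ± 0.063 (SE) (adjusted p = 0.0123). Irf3, an interferon regulatory factor of innate sensing, was lower, with a difference of -0.23 ± 0.050 (SE) (adjusted p = 0.0137). The transcript of the cytokine itself, Ifng, named here after its values were seen, was called lower too, at -0.22 ± 0.053 (SE) (adjusted p = 0.0225).

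Among the monocyte axis genes, Ccr2, the receptor by which monocytes leave the marrow and enter tissue, read -0.26, -0.38, -0.27, -0.25 and -0.25 on the standard-diet arrays, 0.070, -0.037, -0.10, -0.10 and -0.074 on the high-calorie arrays, and -0.40, -0.17, -0.32 and 0.032 on the resveratrol arrays. High-calorie arrays lay above all standard-diet arrays, and the resveratrol arrays spread over both. The difference was 0.24 ± 0.068 (SE) with an adjusted p of 0.0437. It rests on a dim probe, and leaving out any one high-calorie array, or any one of standard-diet arrays 1 to 4, raised the adjusted p to between 0.0584 and 0.0994. Resveratrol minus high-calorie was -0.17 ± 0.072 (SE) (adjusted p = 0.187), and without resveratrol mouse 4, the highest of its group, it was called lower, at -0.25 (adjusted p = 0.0253).

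Ccl2, the main ligand of Ccr2, read -0.99, -0.90, -0.76, -0.81 and -0.71 on the standard-diet arrays, -0.42, -0.078, -0.61, -0.34 and -0.34 on the high-calorie arrays, and -1.02, -0.48, -0.45 and 0.19 on the resveratrol arrays. Standard-diet and high-calorie arrays did not overlap, and resveratrol arrays reached from below the lowest standard-diet array to above the highest high-calorie array. At 0.48 ± 0.16 (SE) the difference between the diets did not pass (adjusted p = 0.0788). The spread of the resveratrol arrays enters the shared error: with only the standard-diet and high-calorie arrays in the fit, the adjusted p of the same difference was 0.00824.

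The RefSeq table places Ccr1, Ccr1l1, Ccr3 and Ccr2 next to each other. Of these, Ccr3, the eotaxin receptor, differed by 0.056 ± 0.033 (SE) (adjusted p = 0.291) and Ccr1l1, a Ccr1-like gene, by -0.022 ± 0.036 (SE) (adjusted p = 0.729). A dimmer Ccr3 probe, well above background on all 14 arrays, went the other way, at -0.11. The probe sequences were not used here, so cross-hybridisation between Ccr2 and similar receptors was not tested.

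Ccl5, a chemokine made by T cells and NK cells, read -1.26, -1.38, -1.30, -1.40 and -1.54 on the standard-diet arrays, -1.13, -1.27, -1.33, -1.39 and -1.22 on the high-calorie arrays, and -1.50, -1.34, -1.43 and -0.94 on the resveratrol arrays. All arrays were below the pool and the diets overlapped, with a difference of 0.11 ± 0.092 (SE) between high-calorie and standard diet (adjusted p = 0.463). Ccl9, a Ccr1 ligand of macrophages, read -0.078, -0.42, 0.030, -0.11 and 0.19 on the standard-diet arrays, 0.23, 0.25, 0.090, 0.23 and 0.17 on the high-calorie arrays, and -0.15, 0.15, -0.066 and -0.062 on the resveratrol arrays. The high-calorie arrays were the most alike, and a single standard-diet array reached into their range. Its difference of 0.27 ± 0.090 (SE) did not pass (adjusted p = 0.0708). Without standard-diet mouse 5, the array in that range, it was called higher, at 0.34 (adjusted p = 0.0148). Mouse 5 was the highest of its group, so leaving it out had to widen the difference. Ccl4, made by activated macrophages and T cells, read 0.66, -0.21, -0.37, -0.37 and -0.26 on the standard-diet arrays, -0.085, -0.036, -0.29, -0.16 and -0.17 on the high-calorie arrays, and -0.31, -0.29, -0.29 and 0.012 on the resveratrol arrays, so standard-diet mouse 1 alone was high.

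**Figure D2:**
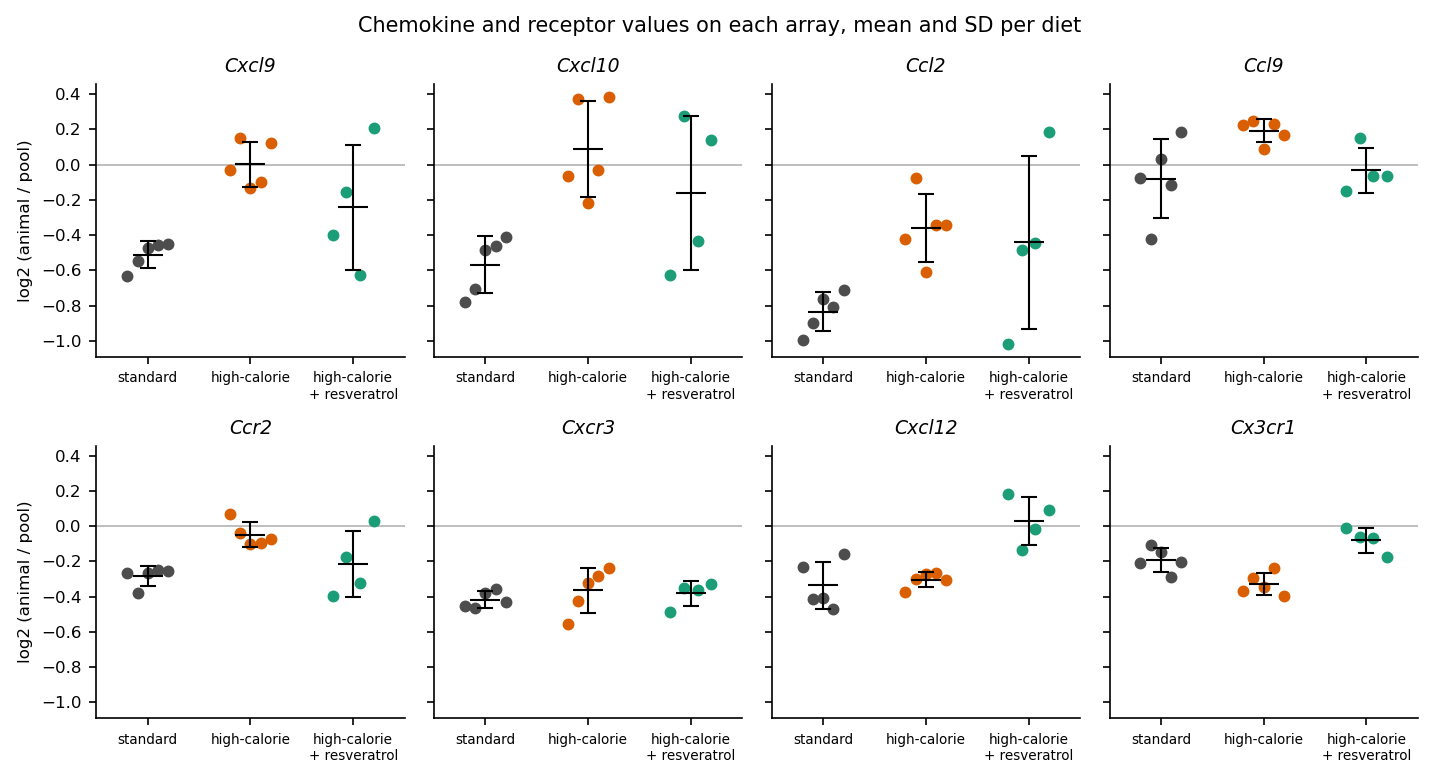
Log2(animal/pool) (y axis) of 8 genes on each array, as 1 point per mouse by diet (x axis), with bars at the mean ± SD. Standard-diet and high-calorie points do not overlap for Cxcl9, Cxcl10, Ccl2 and Ccr2, and the 4 resveratrol points of Cxcl9, Cxcl10 and Ccl2 are widely spread.

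The calls of the high-calorie comparison depended on single arrays and on brightness. The number of members called was 0 without high-calorie mouse 5, 1 without standard-diet mouse 2 or 3 and 2 without standard-diet mouse 1 or high-calorie mouse 2, and it was 0 with array brightness as a covariate. Among arrays processed on the first day, the difference was 0.46 for Cxcl9, 0.53 for Cxcl10 and 0.25 for Ccr2, and on the second day 0.55, 0.74 and 0.24, none called. Over all arrays the 2 groups did not overlap for any of these 3 genes. The differences therefore had to keep their sign on both days. Within the second slide series, which holds all standard-diet arrays, they were 0.56, 0.75 and 0.21, and all 3 genes were called there.

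The mean level of macrophage markers was also higher on high-calorie arrays. Of 11 Kupffer cell and macrophage genes none was called, yet 9 of 11 had a difference above 0, beside 49.2% of all genes tested. The mean log2(animal/pool) of the 11 ran from -0.84 to -0.55 on standard-diet arrays and from -0.49 to -0.23 on high-calorie arrays. The groups did not overlap. Clec4f, a lectin of Kupffer cells, differed by 0.71 ± 0.34 (SE) (adjusted p = 0.189). Marco and Csf1r went the other way, at -0.40 and -0.13, and Cd68 and Timd4 differed by only 0.027 and 0.033. Of 4 monocyte markers, Plac8 was called higher, at 0.54 ± 0.088 (SE) (adjusted p = 0.00228). The mean of the 5 hepatocyte markers went the other way, from 0.72 to 1.01 on standard-diet and from 0.29 to 0.62 on high-calorie arrays, without overlap. Not all 5 fell, since 2 had a difference above 0, Ttr at 0.12 and Trf at 0.013. Only Apoa1, an apolipoprotein of hepatocytes, was called, lower at -0.64 ± 0.17 (SE) (adjusted p = 0.0359). The part of these cells in the chemokine differences was not tested, and in whole liver RNA more cells of a type and more RNA per cell cannot be told apart.

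Resveratrol on the high-calorie diet was accompanied by higher values on the brightest probes of Cxcl12 and Cx3cr1, and by no called fall. The other probe of each gene did not show the difference, as given below. In limma's fit, 2 of 49 members (4.08%) passed, both higher, beside 5.39% of all genes (3.16% higher and 2.23% lower). The members' median difference was 0.00113 and that of all genes -0.00681. The groups did not overlap for 5 of 49 members (10.2%, against 13% of all genes), with 3 higher (Cxcl12, Cx3cr1 and Ppbp, against 6.82%) and 2 lower (Ccl17 among them, against 6.15%).

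Cxcl12, the stromal chemokine that retains Cxcr4-bearing cells in marrow and is made by liver endothelium and stellate cells, read -0.23, -0.41, -0.41, -0.47 and -0.16 on the standard-diet arrays, -0.38, -0.30, -0.27, -0.27 and -0.31 on the high-calorie arrays, and 0.18, -0.14, -0.016 and 0.090 on the resveratrol arrays. All resveratrol arrays lay above all others, while standard-diet and high-calorie arrays overlapped. Resveratrol minus high-calorie was 0.33 ± 0.071 (SE), a fold of 1.26, with an adjusted p of 0.0185. Its receptor Cxcr4 read -0.091, -0.058, -0.0033, -0.11 and -0.15 on the standard-diet arrays, -0.15, -0.15, -0.21, -0.10 and -0.15 on the high-calorie arrays, and -0.041, -0.15, -0.045 and -0.057 on the resveratrol arrays. The diets overlapped, and the difference was 0.080 ± 0.040 (SE) (adjusted p = 0.255).

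Cx3cr1, the fractalkine receptor, read -0.21, -0.11, -0.15, -0.29 and -0.20 on the standard-diet arrays, -0.37, -0.29, -0.34, -0.24 and -0.39 on the high-calorie arrays, and -0.012, -0.060, -0.069 and -0.18 on the resveratrol arrays. All resveratrol arrays lay above all high-calorie arrays, and the standard-diet arrays overlapped with both. Resveratrol minus high-calorie was 0.25 ± 0.048 (SE) with an adjusted p of 0.0135. High-calorie minus standard diet was -0.14 ± 0.045 (SE) and did not pass (adjusted p = 0.0666); both differences share the high-calorie arrays. Cx3cl1, the membrane-bound ligand of Cx3cr1, read 0.13, -0.11, -0.0083, -0.13 and 0.10 on the standard-diet arrays, 0.31, 0.063, 0.039, -0.027 and 0.13 on the high-calorie arrays, and -0.064, -0.074, -0.30 and 0.21 on the resveratrol arrays. The diets overlapped, and the differences were 0.11 ± 0.088 (SE) for high-calorie minus standard diet (adjusted p = 0.452) and -0.16 ± 0.093 (SE) for resveratrol minus high-calorie (adjusted p = 0.337).

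Of 11 Kupffer cell and macrophage genes, Csf1r, the receptor of a macrophage growth factor, was the only one called with resveratrol, higher by 0.28 ± 0.056 (SE) (adjusted p = 0.0149). Of the 11, 6 had a difference above 0 and the median was 0.044. Of 4 monocyte markers none was called. Their part in the Cx3cr1 value was not tested.

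For both genes a second probe did not show the difference. The dimmer Cxcl12 probe, well above background on all 14 arrays, differed by 0.0063 between resveratrol and high-calorie arrays, and the dimmer Cx3cr1 probe, also detected on all 14, by 0.011. With the mean of all probes of a gene in place of the brightest, Cxcl12 had an adjusted p of 0.325 and Cx3cr1 one of 0.068, and 0 members were called. Without resveratrol mouse 1, neither was called, with adjusted p of 0.0747 and 0.0547, and without resveratrol mice 3 and 4 together Cx3cr1 was called and Cxcl12 was not (adjusted p = 0.077). Within the first processing day the differences were 0.35 and 0.22, and within the first slide series 0.41 and 0.22, none called.

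**Figure D3:**
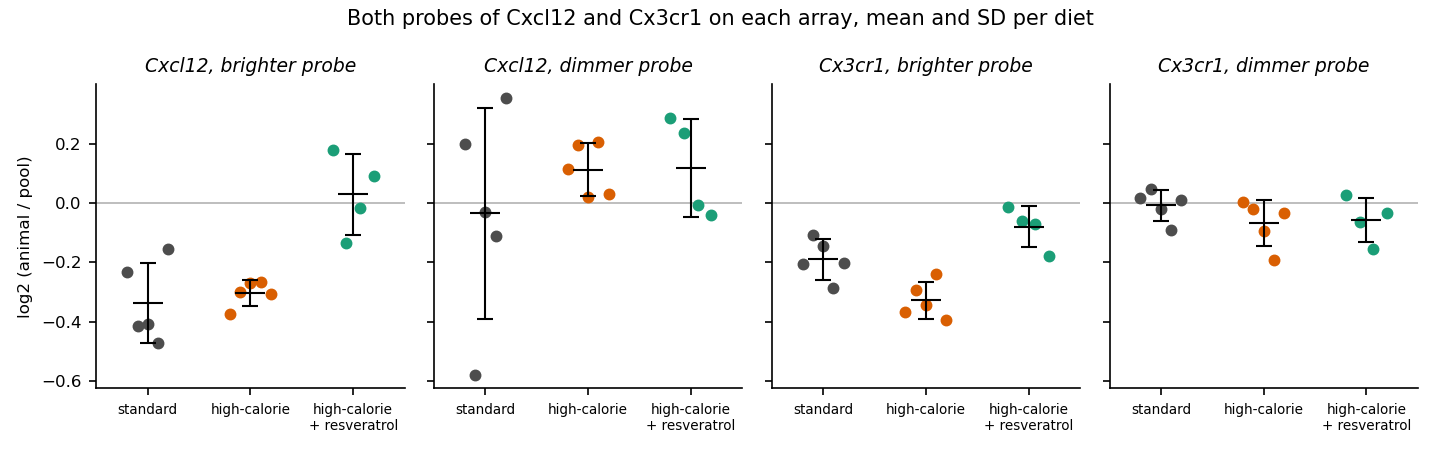
Log2(animal/pool) (y axis) on each array by diet (x axis) for both probes of Cxcl12 and of Cx3cr1, 1 point per mouse, with bars at the mean ± SD. The resveratrol points stand above the high-calorie points on the brighter probe of each gene and overlap with them on the dimmer probe.

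Other members whose groups did not overlap did not pass. Ppbp, a platelet chemokine, read -0.037, 0.016, -0.11, -0.10 and -0.10 on the standard-diet arrays, -0.16, -0.15, -0.064, -0.19 and -0.070 on the high-calorie arrays, and 0.052, 0.024, -0.0096 and -0.057 on the resveratrol arrays. The resveratrol arrays lay just above the high-calorie arrays, at 0.13 ± 0.041 (SE) (adjusted p = 0.0857). Ccl17 read 0.32, -0.062, -0.023, 0.066 and 0.0053 on the standard-diet arrays, -0.051, -0.052, -0.017, -0.11 and -0.045 on the high-calorie arrays, and -0.12, -0.21, -0.16 and -0.15 on the resveratrol arrays. Resveratrol arrays were lowest and standard-diet mouse 1 was alone at the top; resveratrol minus high-calorie was -0.11 ± 0.063 (SE) (adjusted p = 0.344) on a probe not well above background on any resveratrol array. In the Cy3 channel alone, the mean of Ccl17 was 1.04-fold higher in high-calorie and 1.19-fold higher in standard-diet than in resveratrol mice, again as ratios of measured means without an error. Ccr9, the receptor of gut-homing T cells, read -0.020, 0.049, -0.0073, 0.015 and 0.0069 on the standard-diet arrays, -0.028, -0.087, -0.032, -0.14 and -0.11 on the high-calorie arrays, and 0.023, -0.056, -0.048 and -0.094 on the resveratrol arrays. All high-calorie arrays lay below all standard-diet arrays, at -0.088 ± 0.035 (SE) (adjusted p = 0.117), and resveratrol arrays overlapped with both.

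Against the standard diet, high-calorie diet with resveratrol gave no called member. In limma's fit 0 of 49 passed, beside 0.214% of all genes (0.125% higher and 0.0888% lower). At an unadjusted p under 0.05, 4 of the 49 were higher and 1 lower, beside 1611 and 1855 of all 32673 genes. The groups did not overlap for 2 of 49 (4.08%, against 2.94% of all genes), 1 higher (against 1.09%) and 1 lower (against 1.85%). These were Cxcl12, with a difference of 0.37 ± 0.071 (SE) (adjusted p = 0.0566), and Ccl17, at -0.22 ± 0.063 (SE) (adjusted p = 0.188). Cxcl12 was called without standard-diet mouse 5 (adjusted p = 0.0177), without resveratrol mouse 2 (adjusted p = 0.0422) or without resveratrol mouse 3 (adjusted p = 0.0491). Standard-diet mouse 5 was the highest of its group and resveratrol mouse 2 the lowest of its own, so leaving out either had to widen the difference.

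**Figure D4:**
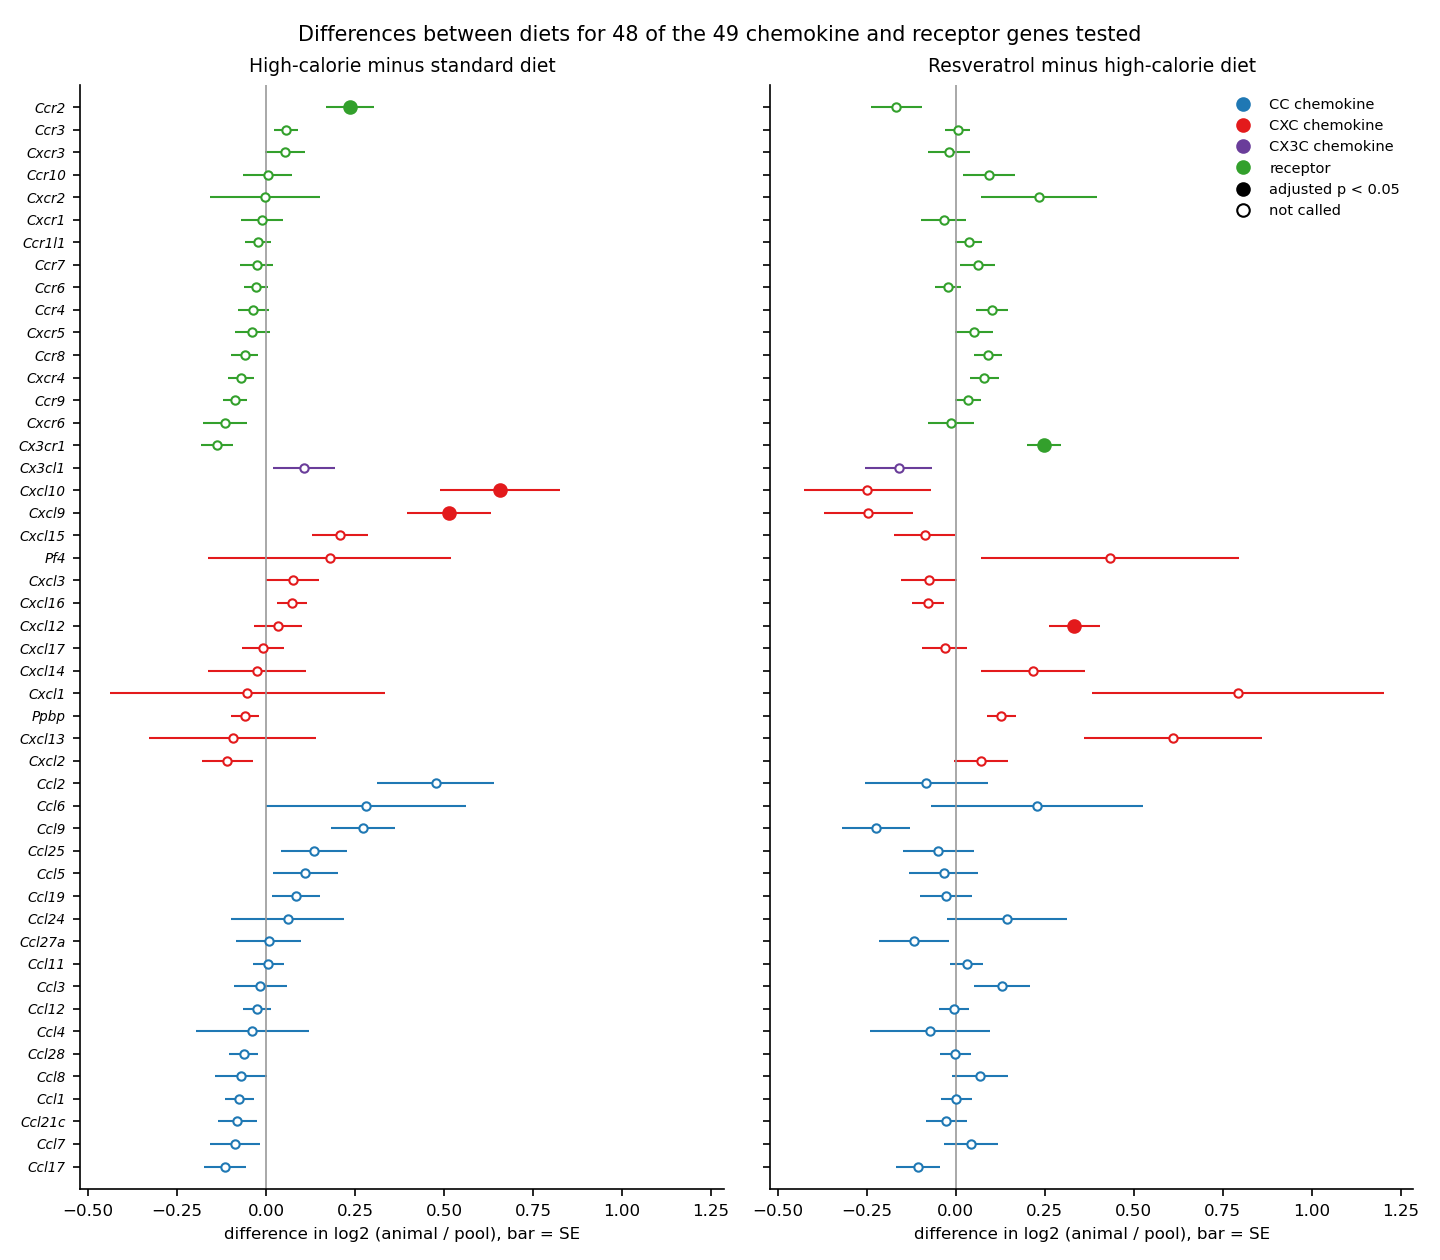
Difference in log2(animal/pool) (x axis, bar = SE) of each of 48 of the 49 genes tested (y axis, grouped by family) for high-calorie minus standard diet (left) and resveratrol minus high-calorie diet (right); filled points passed an adjusted p under 0.05 in limma. Cxcl10, Cxcl9 and Ccr2 are filled on the left, Cxcl12 and Cx3cr1 on the right, and Cxcl1, Cxcl13 and Pf4 have wide bars.

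The widest spread between mice lay in the resveratrol group. The SD within a group exceeded that of all but the most variable 5% of genes for 10 of 49 members (20.4%) in resveratrol mice, against 2 of 49 in standard-diet and 4 of 49 in high-calorie mice. Over resveratrol mice 1 and 2 alone, by the same measure, it was 7 of 49 (14.3%).

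Resveratrol mouse 4 was high for Pf4, Cxcl13, Ccl6, Ccl24 and Cxcr2. Pf4, platelet factor 4, which macrophages also express, read -0.88, -0.87, -0.96, -0.71 and -0.98 on the standard-diet arrays, -0.79, -0.76, -0.69, -0.63 and -0.64 on the high-calorie arrays, and -1.10, -0.82, -0.59 and 1.45 on the resveratrol arrays. Cxcl13, which guides B cells through Cxcr5, read -0.81, -0.90, -0.76, -0.62 and -0.92 on the standard-diet arrays, -0.82, -0.92, -0.91, -0.74 and -1.11 on the high-calorie arrays, and -0.89, -0.82, -0.23 and 0.79 on the resveratrol arrays. Ccl6, a ligand of Ccr1 made by macrophages, read -0.87, -1.30, -0.91, -0.98 and -0.92 on the standard-diet arrays, -0.73, -0.42, -1, -0.81 and -0.62 on the high-calorie arrays, and -1.27, -1.21, -0.046 and 0.57 on the resveratrol arrays. In all 3 genes mouse 4 was the highest of the 14 and the other arrays were mostly below the pool, with mouse 3 second. Ccl24, eotaxin-2, read -0.50, -0.47, -0.48, -0.55 and -0.42 on the standard-diet arrays, -0.50, -0.42, -0.49, -0.34 and -0.37 on the high-calorie arrays, and -0.70, -0.59, -0.31 and 0.47 on the resveratrol arrays, and its second probe read 0.34 on mouse 4, again the highest. Cxcr2, the neutrophil receptor of Cxcl1 and Cxcl2, read -0.23, 0.073, -0.027, -0.15 and 0.034 on the standard-diet arrays, -0.052, -0.094, 0.028, -0.19 and -0.0013 on the high-calorie arrays, and -0.10, -0.050, -0.078 and 0.91 on the resveratrol arrays, but its second probe read 0.16 on mouse 4, within the range of the other arrays. None of the 5 was called between resveratrol and high-calorie mice (adjusted p from 0.165 to 0.701). Without mice 3 and 4 the difference of Pf4 went from 0.43 to -0.26, that of Cxcl13 from 0.61 to 0.045, that of Ccl6 from 0.23 to -0.53, that of Ccl24 from 0.14 to -0.22 and that of Cxcr2 from 0.23 to -0.011, none called. Mice 3 and 4 were the highest of their group for Pf4, Cxcl13, Ccl6 and Ccl24, so leaving them out had to lower these differences.

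Kupffer cell markers were high in the same mouse. On resveratrol array 4, 9 of 11 were at their highest of all 14 arrays, beside 7.12% of all genes tested. Among them were Clec4f at 0.70, Vsig4, a complement receptor of Kupffer cells, at 0.79 and C1qc, a complement component of macrophages, at 0.98. The mean of the 11 was 0.29 there, beside 0.039 on resveratrol array 3 and between -0.78 and -0.74 on the others of the group. Their part in the chemokine values was not tested.

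Resveratrol mouse 3 was high for Cxcl1 and Cxcl14. Cxcl1, a neutrophil attractant induced by NF-kappaB, whose promoter window is printed above, read -1.23, -0.71, -0.52, -1.11 and -1.18 on the standard-diet arrays, -0.97, -0.96, -0.98, -1.14 and -0.96 on the high-calorie arrays, and -1.21, -0.88, 1.63 and -0.39 on the resveratrol arrays. The gap between mouse 3 and the next array was 2.02 log2 units. Resveratrol minus high-calorie was 0.79 ± 0.41 (SE) (adjusted p = 0.276), and -0.038 without mice 3 and 4 (adjusted p = 0.931). Both mice were the highest of their group for Cxcl1, so leaving them out had to lower the difference. Cxcl14, a chemokine of epithelia, read -0.18, -0.22, -0.18, -0.21 and -0.26 on the standard-diet arrays, -0.10, -0.23, -0.23, -0.33 and -0.29 on the high-calorie arrays, and -0.17, -0.24, 0.65 and -0.32 on the resveratrol arrays, and again only mouse 3 was above the pool. Its difference was 0.22 ± 0.15 (SE) (adjusted p = 0.416), and 0.031 without mice 3 and 4 (adjusted p = 0.815). Cxcl2, the close relative of Cxcl1, differed by 0.071 ± 0.077 (SE) between resveratrol and high-calorie arrays (adjusted p = 0.631) and did not stand out in mouse 3, at 0.20. In the same mouse 5 of 6 neutrophil markers tested were the highest of all arrays, with S100a9, a granule protein of neutrophils, at 1.53 and a mean over the 6 of 0.49, against at most -0.17 elsewhere. Of all genes tested, 10.9% were highest on that array. The cytokine Il6 was at 0.74 there and at or below -0.16 on every other array. The share of neutrophils in the Cxcl1 value was not tested.

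**Figure D5:**
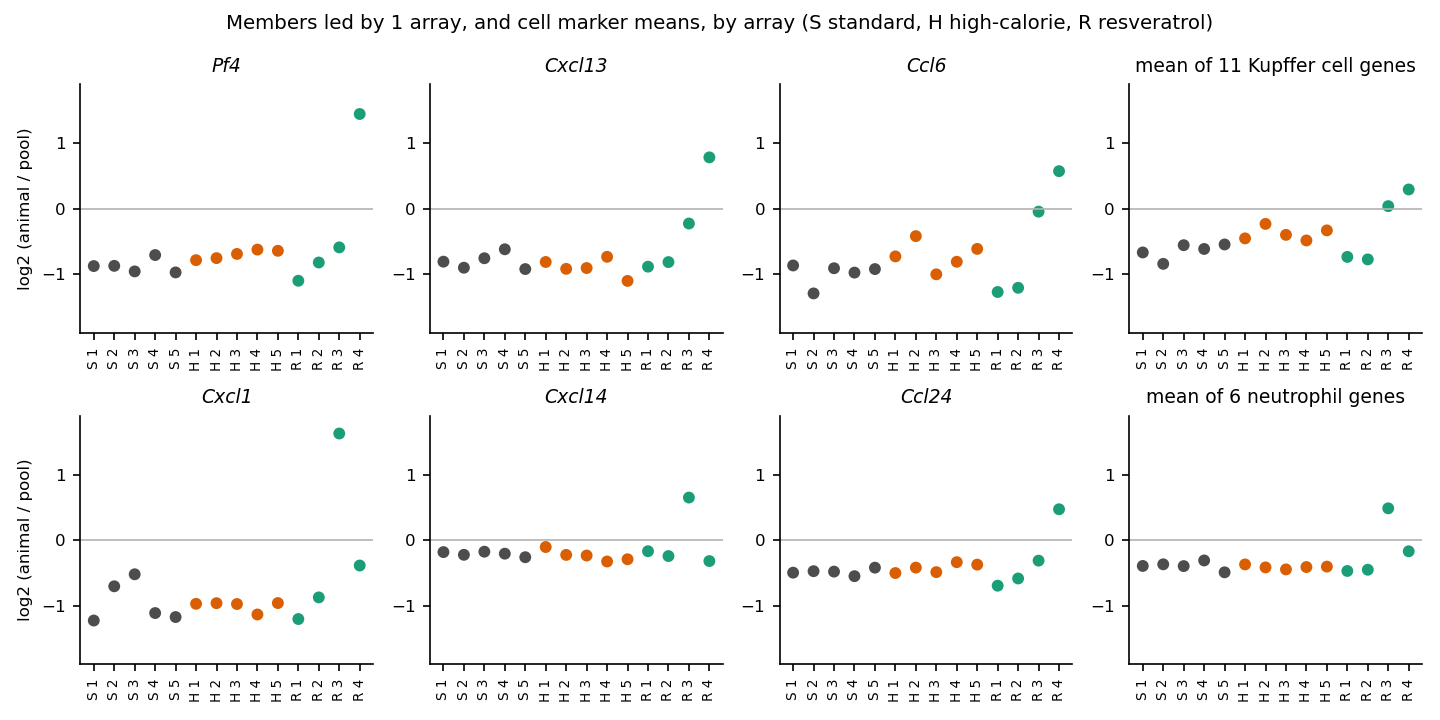
Log2(animal/pool) (y axis) on each of the 14 arrays (x axis) for 6 chemokines and for the mean of the Kupffer cell and of the neutrophil marker genes, coloured by diet. Resveratrol array 4 is highest for Pf4, Cxcl13, Ccl6, Ccl24 and the Kupffer cell mean, and resveratrol array 3 for Cxcl1, Cxcl14 and the neutrophil mean.

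The remaining genes showed small differences. Cxcl16, the transmembrane ligand of Cxcr6 that draws NKT cells to the sinusoids, read -0.076, -0.28, -0.16, -0.13 and -0.083 on the standard-diet arrays, -0.071, -0.020, -0.083, -0.11 and -0.076 on the high-calorie arrays, and -0.14, -0.21, -0.16 and -0.085 on the resveratrol arrays. It was below the pool on every array and the diets overlapped, with 0.073 ± 0.042 (SE) for high-calorie minus standard diet (adjusted p = 0.273). A further 25 tested genes, whose array values are not given one by one, were 11 CC chemokines, 4 CXC chemokines and 10 receptors. Their differences ran from -0.12 (Cxcr6) to 0.21 (Cxcl15) for high-calorie minus standard diet, with 8 above 0, from -0.12 (Ccl27a) to 0.13 (Ccl3) for resveratrol minus high-calorie, with 13 above 0, and from -0.13 (Cxcr6) to 0.12 (Cxcl15) for resveratrol minus standard diet, with 12 above 0. None passed, and the lowest adjusted p in each comparison was 0.11, 0.194 and 0.504. Ccl21c and Ccl27a belong to families of near-identical copies, so their probes may report more than 1 gene.

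Calls among genes around the receptors stand beside the share of all genes called. That share was 9.44% for high-calorie minus standard diet, 5.39% for resveratrol minus high-calorie and 0.214% for resveratrol minus standard diet. Of 11 further chemokines, atypical receptors and related proteins, 2 of which are members here, none was called in any comparison; Ackr3, the atypical receptor that scavenges Cxcl12, differed by 0.27 ± 0.10 (SE) between high-calorie and standard diet (adjusted p = 0.0914) and Rarres2, the ligand chemerin, by -0.23 ± 0.074 (SE) between resveratrol and high-calorie (adjusted p = 0.0859). Of 27 genes of receptor signalling, only Ptk2b, a calcium-dependent tyrosine kinase, was called in any comparison. It read -0.014, 0.19, 0.57, 0.049 and -0.67 on the standard-diet arrays, -1.86, -1.64, -1.60, -1.55 and -1.54 on the high-calorie arrays, and -0.42, -0.82, 0.86 and -1.01 on the resveratrol arrays. The difference was -1.67 ± 0.29 (SE) for high-calorie minus standard diet (adjusted p = 0.00382) and 1.29 ± 0.31 (SE) for resveratrol minus high-calorie (adjusted p = 0.0296), and both use the high-calorie arrays. Among the 29 inducers, resveratrol mice had Ifng and Il4 called higher than high-calorie mice, by 0.22 ± 0.057 (SE) (adjusted p = 0.0381) and 0.26 ± 0.060 (SE) (adjusted p = 0.0267), the latter without resveratrol mouse 3, whose spot the scanner marked as an outlier.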

How the data were processed

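Liver RNA of 14 mice was measured on 2-colour Agilent arrays, with 43790 spots each. The labels give Qiagen RNeasy columns for the extraction and a linear amplification kit for labelling, and the 5, 5 and 4 animals were grouped by diet as the labels give it. The deposited scanner files come from Agilent Feature Extraction 7.5.1, per the file headers, and hold mean and background intensity per spot in both channels. The authors also deposited processed values, treated here as a score and not documented in the sources used here; it served only as an alternative, with direction taken as higher for more animal RNA, and its log base stays unknown.

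Intensities were corrected with normexp (offset 50) and normalised by loess within each array in limma 3.58.1 (R 4.3.3), with control spots at weight 0. Of all spots, 576 with an outlier flag were left out, and spots of a probe were averaged. Probes were named through the RefSeq table of GRCm38.p6, by which 20859 of 41174 probes had exactly 1 gene; others kept the file's name. Each gene kept its brightest probe, and 12 of the 53 members had more than 1. Genes with a Cy3 signal well above background on 4 or more arrays were fitted with 3 diet groups by lmFit and eBayes, with Benjamini-Hochberg adjustment over all 32673 genes in each comparison and a threshold of 0.05. Rose, fell, called and passed refer to it. The fit was tested on simulated data. With 4 or 5 arrays a group, their number limits the precision.

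Of the genes, 1 member and 1 inducer are not reported here by name; both stay in the fit and the counts. Array values were given for every other called member, for members named whatever their result, and for members whose groups did not overlap or with 1 array far from its group. Of the last, Ccl3, Ccr10 and Ccr1l1 were given only by that array and the next. From other lists, up to 4 called genes or 2 as values were given. The members and lists were chosen with earlier results of these data known. Alternatives covered background correction, scaling, filters, probes, array weights, batches and left-out arrays, of which the joint omission of resveratrol mice 3 and 4 was added after the data were seen.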

Additional observations from a re-analysis of the deposited data

Results flagged for a closer look

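In 11 of the 147 combinations of gene and diet examined (49 genes in 3 groups), 1 array lay far from the rest of its group by Dixon's criterion, which chance alone meets in about 1 of 20 groups. On standard-diet arrays these were Ccl4, at 0.66 in mouse 1 with the next array at -0.21, Ccl3, at 0.31 in mouse 5 with the next at 0.02, and 3 genes in mouse 2: Ccl6, at -1.30 with the next at -0.98, Ccr2, at -0.38 with the next at -0.27, and Ccr1l1, at 0.02 with the next at -0.04. On high-calorie arrays Ccr10 was at -0.31 in mouse 2 with the next at -0.01, and Cxcl1 at -1.14 in mouse 4 with the next at -0.98. Among resveratrol arrays Cxcr4 was at -0.15 in mouse 2 with the next at -0.06, Cxcl14 at 0.65 in mouse 3 with the next at -0.17, Ccl4 at 0.01 in mouse 4 with the next at -0.29, and Cxcr2 at 0.91 in mouse 4 with the next at -0.05. Pf4 and Cxcl1, whose single high arrays led all others by the most, did not reach the criterion within the 4 resveratrol arrays.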

How the results depend on the processing

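Of the alternatives run, 19 of 30 kept the count of 4 members called between high-calorie and standard diet within 1.5 times, as did 17 of 28 for the count of 2 between resveratrol and high-calorie diet and 23 of 27 for the count of 0 between resveratrol and standard diet. No called difference changed sign. For high-calorie minus standard diet the count was 2 among genes well above background on all arrays, 7 with array weights (6 higher and 1 lower), 2 with the slide series as a block, 0 with array brightness in the model, and 0 within either processing day alone. Leaving out 1 array gave 0 to 5 calls. For resveratrol minus high-calorie the count was 0 with median centring, with the Cy3 channel alone, with the deposited value table, with the mean of all probes of a gene, within the first processing day and within the first slide series. It was 1 with the slide series as a block and 1 without resveratrol mice 3 and 4 together, and leaving out 1 array gave 0 to 4 calls. For resveratrol minus standard diet the count was 1 with array weights, and leaving out 1 array gave 0 to 1. The cause of these changes was not tested, except that within-day and within-series fits rest on fewer arrays. The labels give no pairing of the mice by replicate number. Between diets, same-numbered arrays correlated at -0.185 to 0.3 (median -0.0405, 13 pairs), with 4 above 0.1. Differently numbered arrays correlated at -0.275 to 0.31 (median -0.00501, 52 pairs), with 9 above 0.1. A fit with the replicate number as a block called 3, 1 and 0 members in the 3 comparisons. Over the alternatives, the adjusted p ran from 0.00073 to 0.229 for Cxcl9, 0.0088 to 0.339 for Cxcl10 and 0.00804 to 0.293 for Ccr2 on the high-calorie diet, and from 0.00936 to 0.545 for Cxcl12 and 0.00511 to 0.673 for Cx3cr1 with resveratrol. The size of the difference ran from 0.143 to 1.1 for Cxcl9, 0.15 to 2.11 for Cxcl10, 0.0426 to 1.16 for Ccr2, 0.166 to 0.405 for Cxcl12 and 0.103 to 0.324 for Cx3cr1, leaving aside the deposited value table, whose scale is unknown. The signal over background limited Cxcl10 and Ccr2, whose probes were well above background on 1 of 5 standard-diet arrays.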

Other observations

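Genes of other liver cells that can make chemokines were counted on the same arrays. Of 6 stellate cell markers, Lrat, which stores retinol as esters, was higher in high-calorie than standard-diet mice by 0.36 ± 0.055 (SE, adjusted p = 0.00149) and Col1a1, a collagen chain, by 0.24 ± 0.055 (SE, adjusted p = 0.0174), while Acta2, smooth muscle actin, was lower, at -0.19 ± 0.045 (SE, adjusted p = 0.0179). With resveratrol, Lrat was lower than on the high-calorie diet alone, at -0.34 ± 0.058 (SE, adjusted p = 0.0083). Of 5 sinusoidal endothelial markers, Pecam1, an adhesion molecule between endothelial cells, was called higher on the high-calorie diet, at 0.22 ± 0.055 (SE, adjusted p = 0.0243). Of 5 adipocyte markers, Fabp4, a fatty acid binding protein that macrophages also make, was higher on the high-calorie diet by 1.60 ± 0.31 (SE, adjusted p = 0.00664), and Retn, resistin, was lower, at -0.20 ± 0.050 (SE, adjusted p = 0.0254); Retn was higher with resveratrol than on the high-calorie diet alone, by 0.23 ± 0.053 (SE, adjusted p = 0.0237). Of 5 cholangiocyte markers, only Spp1, osteopontin, was called, higher on the high-calorie diet by 0.76 ± 0.17 (SE, adjusted p = 0.0148). The differences of the others ran from -0.15 (Krt7) to 0.013 (Krt19 and Sox9). None of 6 dendritic cell markers and none of 7 B cell and plasma cell markers was called in any of the 3 comparisons in limma's fit, with at most 1 of each at an unadjusted p under 0.05 in any comparison.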
